A study of Homo sapiens with 8 samples.

Results

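Oxidative phosphorylation (OXPHOS) genes were followed in U-2OS Tet-ON cells, a human osteosarcoma line that carries the tetracycline-regulated transactivator, after knockdown of the CGG triplet repeat binding protein CGGBP1. The genes were chosen by symbol, as every gene named NDUF, UQCR, COX4 to COX8, ATP5, MT-ND, MT-CO, MT-CYB or MT-ATP at its start. This rule gave 88 of the 18388 genes listed, and all 88 are nuclear. The genes of the mitochondrial genome were not analysed here, so no comparison between the 2 genomes was made. By symbol, 74 of the 88 encode subunits of complexes I, III, IV or V, 8 are assembly factors of complex I, and the others are read-through, like or pseudogene entries and ATP5S, whose product is named after complex V but is set apart here.

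All cells had received siControl or siCGGBP1 at 50 nM for 72 h and, except in 1 library, 4-thiouridine (4sU) for the last 60 min. Each siRNA was represented by 3 libraries at 75 µM 4sU, and siControl also by 1 library each at 0 and 200 µM. The sample names also carry the word DMSO, whose role the labels do not give. The labels do not say whether replicates came from separate cultures, so p-values measure the spread between these samples, which may be technical. Libraries were made from the 3′ ends of polyadenylated transcripts, so a read stands for a transcript end and levels do not scale with transcript length. In SLAM-Seq, iodoacetamide alkylates the 4sU of newly made RNA, which is then read as C in place of T.

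In OXPHOS, complexes I and II pass electrons from NADH and succinate to ubiquinone, complex III passes them on to cytochrome c, and complex IV hands them to oxygen. Complexes I, III and IV pump protons across the inner mitochondrial membrane, and complex V, the ATP synthase, uses the gradient to make ATP. Most subunits are encoded in the nucleus, and a small set that includes the catalytic core of complex IV is encoded in mitochondrial DNA. The mRNAs of nuclear subunits are abundant housekeeping transcripts, many of whose promoters carry sites for NRF1 and ETS factors.

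Between 10127519 and 14221516 reads were counted in the 6 libraries at 75 µM, and 19011714 and 11341561 in those at 0 and 200 µM. CGGBP1 itself stood at 107.7, 94.2 and 77.1 CPM (reads scaled to a common library size) in siControl and at 18.4, 10.1 and 31.4 in siCGGBP1 (log2 fold change -2.22 ± 0.39 SE, edgeR quasi-likelihood test, adjusted p = 0.0138). Of the mesenchymal markers, VIM stood between 2350.6 and 3289.7, while COL1A1 stood at 604.7 to 849.8 in siControl and 1493.5 to 2044.0 in siCGGBP1, and SPARC at 525.9 to 734.3 and 1288.9 to 1898.8. RUNX2 stood between 10.2 and 33.3, ALPL at most at 1.8 and the epithelial marker EPCAM between 4.6 and 13.1. CDH1, CD3E and PECAM1 were at 0 in all 6 libraries and PTPRC was at most at 0.687, and the other 5 markers were not analysed here. The part that the shift of COL1A1 and SPARC has in the results below was not tested.

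As a group, the OXPHOS genes had no called member in total RNA after siCGGBP1. Of the 85 genes with enough reads to be tested (3 or more of the 6 libraries with no fewer than 100 reads), 0 were higher and 0 were lower at an adjusted p under 0.05 (edgeR quasi-likelihood test, p adjusted by Benjamini-Hochberg across the 10138 tested genes, of which 1.79% were called). By an unadjusted p under 0.05, 13 of the 85 differed, 8 higher and 5 lower, which is 15.3% beside 16.4% of all tested genes. DESeq2 called 4 of the 85 (NDUFV3, NDUFB2 and ATP5E higher, NDUFAF2 lower), with 6.11% of all tested genes called. The median log2 fold change (siCGGBP1 over siControl) was -0.02 over the members and 0.0 over all tested genes, and 44 of the 85 were below 0. For 59 of the 85, the 95% interval of the log2 fold change lay inside -1 to 1. In bulk RNA, fewer cells of a type and less RNA per cell cannot be told apart.

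The summed reads of the 72 tested subunits made up 2.14%, 2.09% and 2.16% of all reads in siControl and 2.27%, 2.29% and 2.14% in siCGGBP1. The means were 2.13 ± 0.0361% and 2.23 ± 0.0814% (SD, n = 3), and the groups overlapped. Complex I took 0.657 ± 0.0214% and 0.674 ± 0.0698% of the reads, complex III 0.32 ± 0.0273% and 0.345 ± 0.0131%, complex IV 0.546 ± 0.0341% and 0.549 ± 0.0182%, and complex V 0.609 ± 0.0391% and 0.665 ± 0.0431%. In each of the 4 complexes the 3 siCGGBP1 values overlapped the 3 siControl values. The groups of libraries did not overlap in 8 members that were higher and 7 that were lower, together 17.6% of the 85, beside 12.1% of all tested genes that were higher and another 12.1% that were lower.

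**Figure D1:**
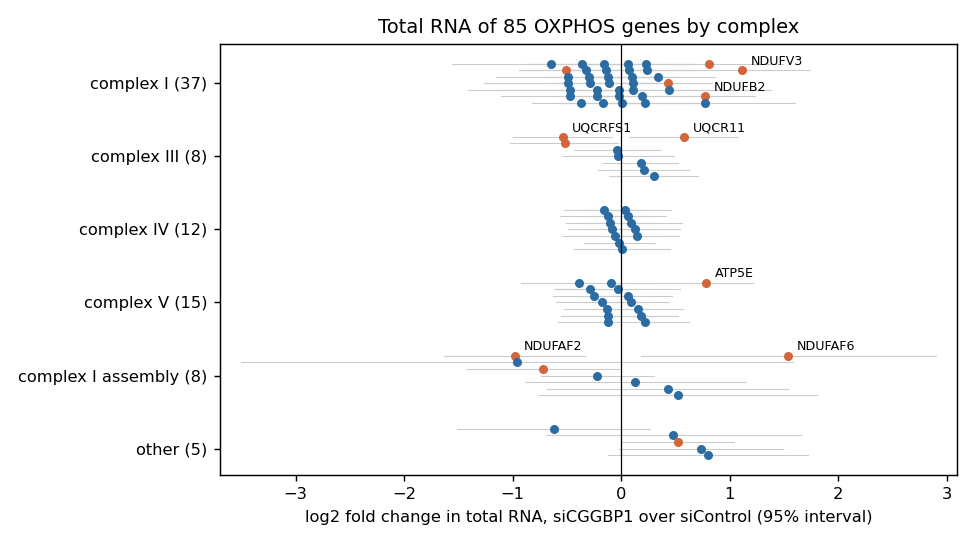
Log2 fold change of total RNA (x axis, siCGGBP1 over siControl, 3 libraries each) of the 85 tested OXPHOS genes, in rows by complex with the number of genes in parentheses; points are edgeR estimates, grey lines 95% intervals, and orange points have an unadjusted p under 0.05. The 12 genes of complex IV lie between -0.16 and 0.15, while complex I spreads from -0.65 to 1.11 and none of the 85 passed the adjusted threshold.

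Complex IV, cytochrome c oxidase, was the most even of the 4 complexes. Its 12 tested subunits lay between -0.16 for COX8A and 0.15 for COX5A on the log2 scale, with 6 above and 6 below 0 and none at an unadjusted p under 0.05. COX4I1, the largest nuclear subunit, stood at 625.0, 684.3 and 595.8 CPM in siControl and 571.9, 720.3 and 689.4 in siCGGBP1 (log2 fold change 0.06, 95% interval -0.3 to 0.41). COX5A stood at 276.0, 270.7 and 278.7 against 285.1, 323.5 and 309.1, so its groups did not overlap, with a log2 fold change of 0.15 (95% interval -0.22 to 0.53, adjusted p = 0.725). COX8A stood at 615.2, 612.1 and 583.1 against 602.9, 572.0 and 447.0, where siCGGBP1 replicate 3 was the lowest and the log2 fold change without it was -0.03.

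COX6A1, COX6B1, COX7A2, COX7A2L and COX7B were placed in complex IV by symbol alone. Their log2 fold changes were -0.06, 0.01, -0.08, 0.09 and 0.04, all within the spread of their libraries. NDUFA4, first described in complex I and now counted to complex IV, had -0.12 ± 0.20 (SE). Its hypoxia-linked relative NDUFA4L2 had 1 read, in siControl replicate 1, among the 6 libraries, and the testis form COX6B2 had 5, in siCGGBP1 replicate 1. COX4I2, COX6A2, COX7A1, COX7B2 and COX8C were not analysed here.

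COX5A was also 1 of 2 members with a tandem of at least 3 CGG units in the 250 bases before its RefSeq start. It is shown because CGGBP1 is named for this triplet. The stretch lies at chr15:74938084-74938323 (minus strand, GRCh38.p14, 250 to 11 bases before the start, where no GENCODE exon is annotated), and capitals mark each CGG pair or longer run on either strand.

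COX5A: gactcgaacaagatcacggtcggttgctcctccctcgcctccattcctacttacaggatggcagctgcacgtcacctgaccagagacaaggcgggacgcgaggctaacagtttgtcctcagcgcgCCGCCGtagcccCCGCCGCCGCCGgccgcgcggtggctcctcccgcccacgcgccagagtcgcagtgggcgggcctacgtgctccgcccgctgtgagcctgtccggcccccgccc

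Complex I, NADH:ubiquinone oxidoreductase, held the widest range among the subunits, from -0.65 for NDUFA10 to 1.11 for NDUFV3, with 17 of 37 above and 20 below 0. The 7 nuclear core subunits that carry the flavin and the iron-sulfur clusters had a median of -0.29, with 5 of 7 below 0, and the 30 accessory subunits a median of -0.0. None of the 7 core subunits had an unadjusted p under 0.05. NDUFS1, the largest of them, stood at 84.5, 76.1 and 69.9 CPM in siControl and 68.3, 75.6 and 40.9 in siCGGBP1. NDUFV1, which binds FMN and NADH, stood at 72.5, 77.5 and 60.0 against 58.9, 69.0 and 24.0. In both genes siCGGBP1 replicate 3 was the lowest library and the groups overlapped. Their log2 fold changes were -0.32 and -0.47, and -0.09 and -0.12 without that library.

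NDUFV3, an accessory subunit of the NADH-binding arm (chr21:42879644-42913304, plus strand, GRCh38, GENCODE 44), stood at 84.3, 92.8 and 40.8 CPM in siControl and 142.6, 170.7 and 156.6 in siCGGBP1. All 3 siCGGBP1 libraries were above all 3 of siControl. The fold was 2.16 (log2 fold change 1.11, 95% interval 0.47 to 1.74), with an adjusted p of 0.0824 by edgeR and 0.00927 by DESeq2. NDUFB2, an accessory subunit of the membrane arm (chr7:140690777-140722790, plus strand, GRCh38, GENCODE 44), stood at 163.0, 165.8 and 115.9 in siControl and 240.8, 234.7 and 284.1 in siCGGBP1, again without overlap. Its log2 fold change was 0.77 (95% interval 0.32 to 1.23), with adjusted p = 0.0863 by edgeR and 0.0114 by DESeq2. At an adjusted p under 0.1, the edgeR test called 3 members, all higher (NDUFV3, NDUFB2 and ATP5E of complex V), where 1.76% of all tested genes were called higher.

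The stretch before the RefSeq start of NDUFV3 is shown as that of the subunit with the highest log2 fold change. The GENCODE span given above begins upstream of it, so the stretch lies inside the annotated gene. It is found at chr21:42893059-42893267 (plus strand, GRCh38.p14, 250 to 42 bases before the start, free of annotated exons), and it has no CGG pair, nor have the full 250 bases, so no letter is in capitals.

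NDUFV3: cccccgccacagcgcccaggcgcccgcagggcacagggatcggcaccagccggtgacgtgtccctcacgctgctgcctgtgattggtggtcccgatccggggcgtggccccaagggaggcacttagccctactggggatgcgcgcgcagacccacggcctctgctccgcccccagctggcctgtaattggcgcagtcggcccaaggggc

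Other complex I genes with an unadjusted p under 0.05 were NDUFA3 (0.81 ± 0.32 SE on the log2 scale), NDUFB1 (0.43 ± 0.19) and NDUFA9 (-0.51 ± 0.18), with adjusted p-values of 0.219, 0.281 and 0.186. NDUFA9, a nucleotide-binding accessory subunit, stood at 247.1, 254.8 and 219.0 in siControl and 165.6, 177.2 and 163.8 in siCGGBP1, so every siCGGBP1 library was below every siControl library. NDUFB1, a small membrane-arm subunit, stood at 203.5, 166.3 and 218.6 against 272.8, 253.3 and 265.9, without overlap in the other direction. NDUFA3 stood at 78.6, 99.5 and 52.3 against 142.5, 178.0 and 83.4, and its groups overlapped.

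The 8 assembly factors of complex I, which join the modules of the complex and are absent from the finished enzyme, had a median of -0.04 and the lowest and highest values of the whole group. Their summed reads averaged 0.0499 ± 0.00926% of the library in siControl and 0.0373 ± 0.00381% after siCGGBP1 (SD, n = 3), with no overlap between the groups. The gap was narrow, with 0.0409% in the lowest siControl library and 0.0399% in the highest of siCGGBP1. NDUFAF8 and NDUFAF2, both lower, hold a large part of these reads, while by log2 fold change 4 of the 8 were above and 4 below 0. NDUFAF2 (chr5:60945177-61154531, plus strand, GRCh38, GENCODE 44), which binds a late assembly intermediate, stood at 131.4, 92.6 and 156.4 in siControl and 88.1, 60.0 and 44.8 in siCGGBP1. Its groups did not overlap, with a log2 fold change of -0.98 (95% interval -1.63 to -0.33), adjusted p = 0.118 by edgeR and 0.0314 by DESeq2. NDUFAF6 stood at only 10.2, 11.0 and 2.43 against 22.3, 23.3 and 23.1 (1.54 ± 0.63 SE, adjusted p = 0.246). NDUFAF8 stood at 174.0, 312.2 and 133.0 against 121.9, 168.6 and 85.1 (-0.72 ± 0.32 SE, adjusted p = 0.292), with overlap, and at -0.30 without siControl replicate 2. NDUFAF1 had a log2 fold change of -0.96 with a 95% interval of -3.5 to 1.58, and 0 reads in siCGGBP1 replicate 3. It ran from -2.17 without siCGGBP1 replicate 2 to -0.36 without siCGGBP1 replicate 3.

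The exon-free stretch before NDUFAF2, the lowest member, lies at chr5:60945074-60945176 (plus strand, 131 to 29 bases before the start). The CGG pair of NDUFAF2 lies elsewhere in its 250 bases, so the stretch itself has none.

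NDUFAF2: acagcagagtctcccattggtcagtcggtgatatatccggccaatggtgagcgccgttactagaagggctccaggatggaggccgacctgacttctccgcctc

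Complex III, the cytochrome bc1 complex, held 4 subunits above and 4 below 0, with a median log2 fold change of 0.07. UQCRFS1, the Rieske iron-sulfur protein (chr19:29205320-29213151, minus strand, GRCh38, GENCODE 44), stood at 274.0, 244.7 and 336.8 in siControl and 171.2, 175.9 and 241.2 in siCGGBP1, without overlap (log2 fold change -0.54, 95% interval -1.0 to -0.08, adjusted p = 0.221). UQCRC2, a core protein of the matrix side, stood at 159.1, 193.6 and 194.5 against 116.4, 101.6 and 162.5 (-0.52 ± 0.23 SE, adjusted p = 0.278). The other core protein, UQCRC1, had -0.03 ± 0.24. UQCR11, the smallest subunit, stood at 105.9, 106.7 and 144.2 against 138.2, 183.0 and 210.3 (0.58 ± 0.23 SE, adjusted p = 0.238). The groups overlapped in UQCRC2 and in UQCR11.

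In complex V, 9 of 15 subunits were below 0 and the median was -0.09. The catalytic head subunits ATP5A1 and ATP5B, which form the alpha and beta ring, had log2 fold changes of 0.22 ± 0.19 and -0.25 ± 0.18 (SE), where ATP5A1 had 0.06 without siCGGBP1 replicate 3 and ATP5B -0.16 without siControl replicate 1. The 3 genes ATP5G1, ATP5G2 and ATP5G3, which encode the same mature c subunit of the rotor ring behind different import sequences, had -0.13, -0.12 and -0.29. ATP5G3 stood at 593.4, 561.0 and 613.1 in siControl and 494.6, 496.6 and 459.2 in siCGGBP1, without overlap (95% interval -0.62 to 0.05, adjusted p = 0.395).

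ATP5E (ATP5F1E), the epsilon subunit of the central stalk (chr20:59025475-59032345, minus strand, GRCh38, GENCODE 44), stood at 1210.4, 771.7 and 976.0 in siControl and 1977.0, 1244.6 and 1847.5 in siCGGBP1. The lowest siCGGBP1 library was just above the highest of siControl. The log2 fold change was 0.78 (95% interval 0.33 to 1.22), with adjusted p = 0.0823 by edgeR and 0.00566 by DESeq2. Its processed copy ATP5EP2 stood at 116.2, 54.9 and 67.6 against 161.1, 73.3 and 163.7 (0.74 ± 0.35 SE, adjusted p = 0.315). Counts of 84 of the 88 genes were fractional, since reads that match several genes were shared out, so ATP5E and ATP5EP2 may not be independent. The same may hold for UQCRH and UQCRHL, ATP5L and ATP5L2, and NDUFC2 and its read-through with KCTD14. Which genes shared reads was not traced.

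The stretch before ATP5E is shown for comparison with COX5A. It lies at chr20:59032346-59032585 (minus strand, 250 to 11 bases before the start) and has 1 CGG pair, in capitals as its complement.

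ATP5E: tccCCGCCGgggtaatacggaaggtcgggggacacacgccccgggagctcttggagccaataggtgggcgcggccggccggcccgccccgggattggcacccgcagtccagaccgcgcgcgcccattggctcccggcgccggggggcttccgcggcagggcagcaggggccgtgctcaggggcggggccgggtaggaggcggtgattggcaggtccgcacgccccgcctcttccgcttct

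**Figure D2:**
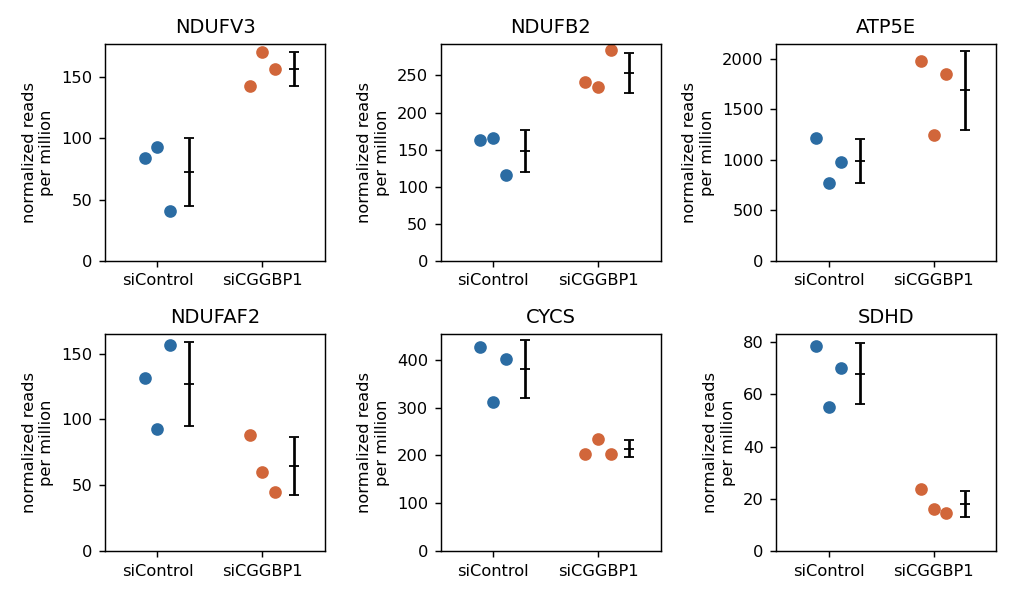
Normalized read count (CPM) in each of the 3 siControl (blue) and 3 siCGGBP1 (orange) libraries, with the mean and SD in black, for 4 OXPHOS genes (NDUFV3, NDUFB2, ATP5E, NDUFAF2) and for CYCS and SDHD; every y axis starts at 0. The groups do not overlap in any of the 6 genes, and SDHD, with 67.9 ± 11.8 against 18.1 ± 4.96, differs most as a ratio.

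Other genes of the pathway were set beside the members. Complex II and cytochrome c, which the naming rule leaves out, held 2 called genes among 6, both lower, where 1.21% of all tested genes were called lower. SDHD, a membrane anchor of complex II, fell from 78.4, 55.2 and 70.2 CPM to 23.8, 16.1 and 14.5 (log2 fold change -1.91, 95% interval -2.63 to -1.19, adjusted p = 0.0138). CYCS, the cytochrome c that carries electrons from complex III to IV, fell from 427.4, 311.8 and 402.0 to 203.8, 234.2 and 202.5 (log2 fold change -0.83, 95% interval -1.25 to -0.42, adjusted p = 0.048). SDHA, SDHB and SDHC, the other complex II subunits, had log2 fold changes of -0.29, -0.07 and 0.28, and CYC1, the cytochrome c1 of complex III, had -0.09, all with adjusted p-values of at least 0.55. Leaving out a library raised the adjusted p of CYCS to between 0.0609 and 0.171, and that of SDHD passed 0.05 without siControl replicate 1 (0.0776), siControl replicate 3 (0.0542) or siCGGBP1 replicate 2 (0.0583).

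Of 40 tested assembly factors of the other complexes and of complex I outside the naming rule, 0 passed by edgeR and 0 by DESeq2, 2 had an unadjusted p under 0.05 (1 higher, 1 lower) and the median was -0.13. Of 26 tested genes of mitochondrial DNA replication, transcription and RNA handling, 0 passed by edgeR and 2 by DESeq2, 4 had an unadjusted p under 0.05 (1 higher, 3 lower) and the median was -0.14, where 6.11% of all tested genes passed by DESeq2 and 16.4% had such an unadjusted p. The 2 genes that DESeq2 called were named after their values were seen. TFAM, which packages mitochondrial DNA and starts its transcription, stood at 252.8, 229.3 and 209.0 in siControl and 156.8, 119.4 and 120.6 in siCGGBP1 (-0.80 ± 0.20 SE, adjusted p = 0.074 by edgeR, 0.00465 by DESeq2). SLIRP, the partner of LRPPRC that binds mitochondrial mRNAs, stood at 564.3, 565.6 and 678.9 against 395.5, 380.6 and 343.8 (-0.69 ± 0.17 SE, adjusted p = 0.0584 by edgeR, 0.00105 by DESeq2). The summed reads of the 26 genes averaged 0.215 ± 0.00351% of the library in siControl and 0.173 ± 0.00231% after siCGGBP1, without overlap, and TFAM and SLIRP are among its most abundant members. LRPPRC itself had -0.06 ± 0.21. Of 9 tested regulators of nuclear OXPHOS genes, 0 passed by edgeR, 0 by DESeq2 and 0 at an unadjusted p under 0.05, with a median of -0.08, and NRF1 had -1.16 ± 0.67 (SE).

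Promoters were searched because the depleted protein is named for CGG repeats. A RefSeq promoter was matched for 68 of the 85 tested members, and the 250 bases before the start were searched on both strands. CGGCGG was found in 29.4% of the 68, in 41.8% of 8234 tested genes and in 24.0% of all 27305 promoters. CGGCGGCGG, which contains the former, was found in 2 members (COX5A and NDUFA7), or 2.94%, against 7.12% of tested genes and 4.2% of all promoters. The 20 members with CGGCGG had a median log2 fold change of 0.06 and the 48 without it -0.07, beside 0.02 and -0.02 in all tested genes. GCGCNTGCG, which resembles the site of NRF1, was found in 17 of the 68 members, 14.7% of tested genes and 7.09% of promoters, and these 17 had a median log2 fold change of -0.12, the 51 without it -0.02 and all tested genes with it -0.0. CCGGAAG, an ETS-like core, was found in 22.1%, 17.7% and 8.82%, and AAGATGGCG, a YY1-like word, in 1.47%, 1.11% and 0.641%. These matches describe letters and not occupied sites.

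Stretches of 2 of these 17 are shown as examples of OXPHOS promoters with this word. They were chosen among those with more than 1 match in the 250 bases, because a match lies outside annotated exons. They lie at chr3:120596086-120596327 (NDUFB4, plus strand, 250 to 9 bases before the start) and chr19:1605474-1605712 (UQCR11, minus strand, 250 to 12 bases before the start), and capitals mark the matches on either strand, overlapping ones as 1 run.

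NDUFB4: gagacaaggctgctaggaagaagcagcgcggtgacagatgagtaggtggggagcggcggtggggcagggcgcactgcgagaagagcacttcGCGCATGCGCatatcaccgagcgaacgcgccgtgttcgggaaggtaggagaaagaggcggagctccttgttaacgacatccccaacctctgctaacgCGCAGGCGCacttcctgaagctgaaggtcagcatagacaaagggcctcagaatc
UQCR11: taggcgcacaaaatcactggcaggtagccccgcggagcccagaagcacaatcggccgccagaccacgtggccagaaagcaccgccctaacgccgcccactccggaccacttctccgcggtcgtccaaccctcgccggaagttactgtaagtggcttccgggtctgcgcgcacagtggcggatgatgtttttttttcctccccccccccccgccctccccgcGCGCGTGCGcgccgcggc

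New RNA was examined next, by T-to-C conversions per 100 covered T positions. Pooled over the 72 subunits, the rate was 0.111, 0.0943 and 0.0748 in siControl and 0.126, 0.0938 and 0.102 in siCGGBP1, against 0.0585 in the library without 4sU (95% Wilson interval 0.0572 to 0.0599, which covers counting error only). Over all tested genes it was 0.231, 0.242 and 0.183 in siControl and 0.26, 0.222 and 0.241 in siCGGBP1, against 0.0642 without 4sU. The rate of the subunits above the level without 4sU was 0.0163 to 0.0525 in siControl and 0.0353 to 0.0675 in siCGGBP1. This was 13.7% to 34.4% of the same excess over all tested genes, with the lowest share in siControl replicate 3. In complex III the excess was 0.0445, 0.0002 and -0.0126 in siControl, so in replicate 3 it lay below the library without 4sU. Without 4sU, complex III had 0.0775 and its member UQCRB 0.294. The part that UQCRB has in this excess was not tested. The library without 4sU is of siControl, and both groups are set against it.

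The groups overlapped in this rate. The subunits averaged 0.0934 ± 0.0181 in siControl and 0.107 ± 0.0167 in siCGGBP1 (SD, n = 3), and all tested genes 0.219 ± 0.0314 and 0.241 ± 0.019. Complex I averaged 0.101 ± 0.0238 and 0.118 ± 0.0293, complex III 0.0882 ± 0.03 and 0.112 ± 0.0106, complex IV 0.0814 ± 0.0239 and 0.096 ± 0.0179, and complex V 0.1 ± 0.0129 and 0.104 ± 0.012. Within complex I the core subunits averaged 0.195 ± 0.0192 in siControl and the accessory subunits 0.0885 ± 0.0276. Assembly factors outside the naming rule averaged 0.213 ± 0.0283 in siControl and genes of mitochondrial DNA expression 0.27 ± 0.0815.

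**Figure D3:**
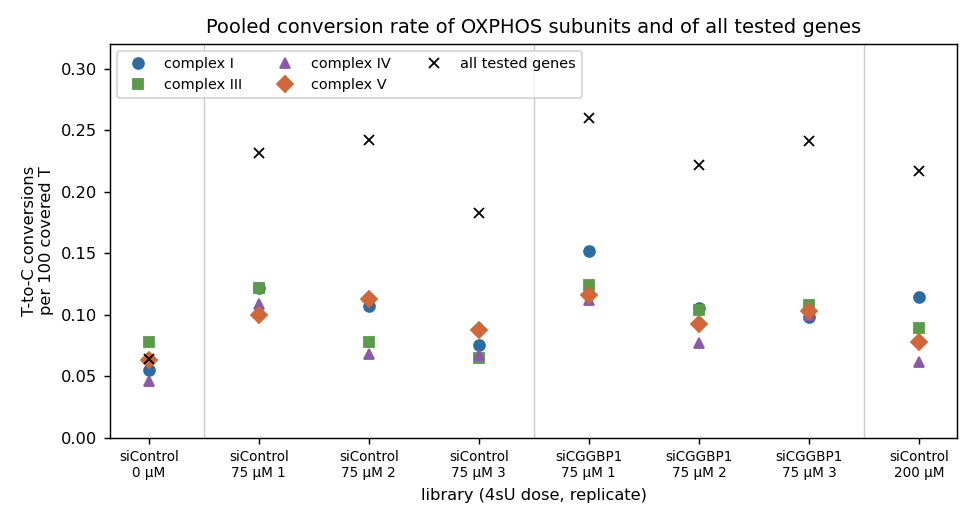
Pooled T-to-C conversions per 100 covered T (y axis) in each of the 8 libraries (x axis, by siRNA and 4sU dose) for the subunits of complexes I, III, IV and V and for all tested genes (crosses). In the 7 libraries with 4sU all 4 complexes lie below the crosses, and without 4sU they lie between 0.0462 and 0.0775, around the 0.0642 of all tested genes.

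Reads with at least 2 conversions told the labelled libraries apart more sharply. Per 100 conversions, the subunits had 10.9, 11.1 and 11.4 such reads in siControl and 12.3, 13.2 and 9.54 in siCGGBP1, but 0.38 without 4sU. All tested genes had 18.2 to 19.4 in the same 6 libraries and 1.48 without 4sU. In siCGGBP1 replicate 3 these reads were unevenly spread, with 0.325 per 100 conversions in complex I and 20.9 in complex IV, where NDUFA4 had 346 and COX4I1 154 of them. The conversion rate of complex I in that library was 0.0982, so its conversions there were nearly all lone ones.

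Some subunits carried conversions without any 4sU. Above 0.15 per 100 T, a limit chosen after the values were seen, lay 9 of the 85 members (10.6%) and 1230 of all tested genes (12.1%). NDUFA5 stood highest at 0.295 (95% Wilson interval 0.257 to 0.339), followed by UQCRB at 0.294, ATP5EP2 at 0.262, ATP5G1 at 0.221 and ATP5C1 at 0.218. NDUFA5 had 0.273, 0.172 and 0.0855 in siControl at 75 µM, so all 3 labelled libraries were below the unlabelled one. UQCRB had 0.201, 0.166 and 0.184, likewise all below. In 9 of the 72 subunits the siControl mean was below the level without 4sU. For UQCRB, 1 of these 9, the deposited new-to-total ratio was 2.54%, 2.74% and 4.6% in siControl. Without the 8 subunits above the limit, the pooled rate was 0.0325 without 4sU, 0.0969, 0.0763 and 0.0585 in siControl and 0.109, 0.0781 and 0.077 in siCGGBP1.

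**Figure D4:**
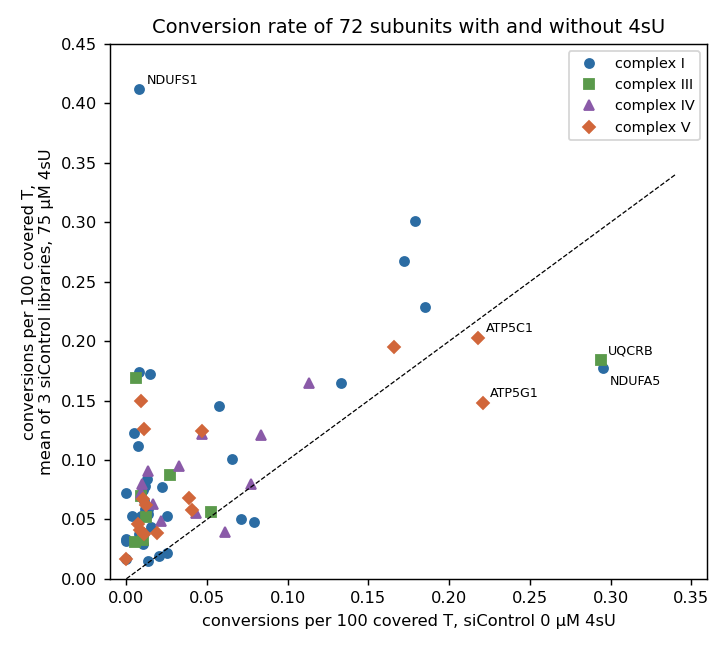
Mean conversion rate of the 3 siControl libraries at 75 µM (y axis) against the rate of the siControl library without 4sU (x axis), both in conversions per 100 covered T, for the 72 tested subunits coloured by complex; the dashed line marks equal rates. NDUFS1 stands far above the line with 0.00787 without 4sU, and UQCRB, NDUFA5 and ATP5G1 lie below it.

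The labelled rate differed widely among members. Among the 85, the siControl means stood farthest above the level without 4sU in NDUFAF5 (by 0.818), ATP5L2 (by 0.653) and ATP5S (by 0.627), none of which is a subunit, and least in NDUFA5, UQCRB and ATP5G1. Among the subunits NDUFS1 led with 0.203, 0.299 and 0.735 in siControl. In siCGGBP1 it had 0.822, 0.292 and 0.00513, so the library with the lowest rate and the one with the highest rate were both siCGGBP1. Its covered T positions were 19510 to 32360 per library. ATP5S had 0.452, 0.583 and 0.904 against 0.539, 0.296 and 0.165.

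No member differed in conversion rate between the groups after adjustment. Of the 84 members in this fit, 0 passed (edgeR on conversions with covered T as offset, 0.0301% of 9958 genes called), 0 passed by limma, and 3 had an unadjusted p under 0.05, beside 4.86% of all tested genes. The groups did not overlap in 2 members that were higher (4.22% of tested genes) and 3 that were lower (4.54%). New RNA, the reads multiplied by the new-to-total ratio, gave 0 calls by edgeR (0.0493% of tested genes called), 0 by DESeq2 and 2 members at an unadjusted p under 0.05 (3.15% of tested genes). The median SE of a member was 2.77 on the log2 scale in this fit, 1.36 for the conversion rate and 0.22 for total RNA.

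5 members had conversion rates without overlap between the groups. UQCRFS1, whose total RNA was lower without overlap, had 0.235, 0.175 and 0.0982 conversions per 100 T in siControl and 0.346, 0.306 and 0.416 in siCGGBP1 (log2 fold change 1.07, adjusted p = 1.0 by edgeR). Its new-to-total ratio was 3.68%, 3.1% and 1.35% against 6.02%, 6.28% and 8.6%. The 5% to 95% credible limits of the siControl libraries ended at 4.64%, 3.91% and 1.91%, below the lowest limit of siCGGBP1 at 4.87%. These limits are set within each library and do not measure the spread between libraries, so their separation is no test of the groups. ATP5B went the other way, with 0.097, 0.0882 and 0.194 against 0.0131, 0.0463 and 0.0136 (log2 fold change -2.37, adjusted p = 0.836 by edgeR). Its ratio was 0.85%, 1.04% and 3.82% in siControl and 0%, 0.46% and 0% in siCGGBP1. ATP5C1, the gamma subunit and 1 of the genes with a high rate without 4sU, had 0.169, 0.298 and 0.141 against 0.342, 0.373 and 0.658 (log2 fold change 1.18, adjusted p = 1.0 by edgeR). NDUFA8 and ATP5L were lower in all 3 siCGGBP1 libraries, with edgeR adjusted p-values of 0.986 and 1.0. ATP5F1, the b subunit of the stator, overlapped between the groups, with 0.0796, 0.0879 and 0.00725 against 0.267, 0.0823 and 0.267 and an edgeR adjusted p of 0.94.

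The new-to-total ratio itself was low throughout. Its median over the 72 subunits was 0.935%, 0.65% and 0% in siControl and 0.605%, 0.485% and 0% in siCGGBP1, where all tested genes had 3.82%, 4.74% and 0% and 3.37%, 2.78% and 0%. Listed at 0 were 19.4%, 31.9% and 61.1% of the subunits in siControl and 36.1%, 31.9% and 72.2% in siCGGBP1. Of all tested genes, 23.2%, 22.5% and 57.4% were at 0 in siControl and 31.9%, 29.6% and 59.8% in siCGGBP1. Replicate 3 of both groups thus held the most ratios at 0, and leaving out both left the calls among the members at 0 in total RNA, new RNA and conversion rate (edgeR). Weighted by reads, 1.24%, 1.26% and 1.21% of the subunits' RNA was new in siControl and 1.54%, 0.955% and 1.98% in siCGGBP1, so the group means of 1.24 ± 0.0252% and 1.49 ± 0.514% (SD, n = 3) overlapped. By complex, this share averaged 1.54 ± 0.101% and 1.93 ± 0.836% in complex I, 1.01 ± 0.209% and 1.28 ± 0.168% in complex III, 0.813 ± 0.386% and 1.05 ± 0.54% in complex IV, and 1.41 ± 0.358% and 1.54 ± 0.47% in complex V. Only 10 of the 72 subunits had a ratio above 0 in all 6 libraries, and 5 of these 10 had a rate above 0.15 without 4sU. The other 5 were NDUFA4, ATP5G2, COX4I1, ATP5H and UQCRFS1, while 6 subunits were at 0 in all 6 libraries.

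**Figure D5:**
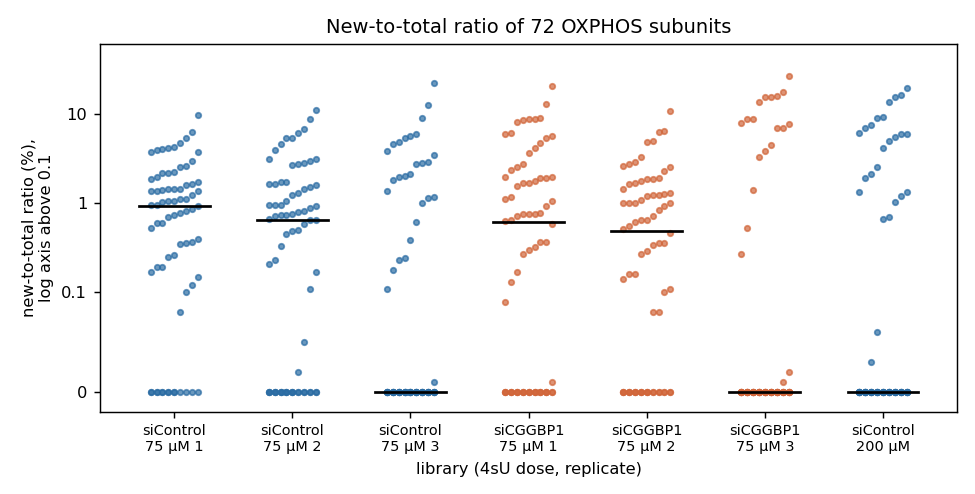
New-to-total ratio in percent (y axis, logarithmic above 0.1 and linear below) of the 72 tested subunits in the 6 libraries at 75 µM 4sU and the siControl library at 200 µM, 1 point per gene, with the median as a black bar. The medians of replicate 3 in both groups and of the 200 µM library are at 0.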

How the data were processed

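Total RNA and T-to-C conversions were read from a table of the whole series with 8 libraries, in the 6 at 75 µM 4sU for all tests. The authors removed rRNA reads with Bowtie2 2.3.0, aligned the rest to GRCh38 with STAR 2.5.3a per the submitters' processing notes, and ran GRAND-SLAM. The deposited read counts are estimated counts that need not be whole, since multi-mapping reads are shared, and they were rounded. The deposited new-to-total ratio is a fraction between 0 and 1 (its most likely value, with 5% and 95% limits), printed here in percent, and the deposited conversions and covered T positions are estimated counts as well. The deposited posterior mean of the ratio served in an alternative, and the parameters of its fitted distribution were not used.

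Genes that reached 100 reads in 3 or more of the 6 libraries (10138 of 18388) were tested with edgeR 4.0.16 (TMM, quasi-likelihood, R 4.3.3), called at an adjusted p under 0.05 over all tested genes. CPM values are reads scaled by the effective library size, and SE is the log2 fold change over the square root of F. New RNA was reads times ratio with the library sizes of the total reads, and conversion rates were fitted with log covered T as offset (9958 genes). DESeq2 1.42.0 and limma 3.58.1 were alternatives, beside other filters, size factors, a replicate block and leaving out libraries. The edgeR fits were also run on simulated data, whose outcome is not reported here. Total counts per library were 10127519 to 19011714.

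Named were the 3 highest and 3 lowest members in total RNA, set core subunits (1 of which is not reported here) and isoforms, and the 3 highest and 3 lowest in conversion rate above 0 µM. Members with an unadjusted p under 0.05, groups that do not overlap in conversion rate, a high rate without 4sU or many reads with 2 conversions were added after their values were seen. The members and all lists were chosen with earlier results of these data known. Promoters are RefSeq sequences of GRCh38.p14, and exons are those of GENCODE 44.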

Additional observations from a re-analysis of the deposited data

Results flagged for a closer look

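A siControl library at 200 µM 4sU took no part in the comparisons. Its pooled conversion rate over the 72 subunits was 0.0842 per 100 covered T (95% Wilson interval 0.0821 to 0.0864), above the 0.0585 of the library without 4sU, which is why it is given here. It lay within the 0.0748 to 0.111 of siControl at 75 µM, and over all tested genes it had 0.217, against 0.183 to 0.242. The subunits' new-to-total ratio was 0 in 65.3% of genes at 200 µM, beside 55.6% of all tested genes. With 1 library at this dose there is no replicate check.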

How the results depend on the processing

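In total RNA the count of called members was 0 under edgeR, with DESeq2 size factors, with a filter of 1 read in each group, with an added fold limit and without each single library (0 to 0), and it was 3 at an adjusted p under 0.1, 4 by DESeq2 and 1 with the replicate number as a block (ATP5E, adjusted p = 0.0185 by edgeR). In new RNA and conversion rate it was 0 under every alternative. The replicate numbers are shared across groups but no label ties them, and deviations of same-numbered libraries correlated at 0.109, 0.182 and 0.0885, each the best match of its library, so the pairing is a hint only. With the block, the adjusted p by edgeR was 0.04 for TFAM, 0.0509 for CYCS and 0.0194 for SDHD. Over 11 alternatives the adjusted p ranged from 0.00927 to 0.196 for NDUFV3, 0.0114 to 0.2 for NDUFB2, 0.00566 to 0.264 for ATP5E, 0.0314 to 0.303 for NDUFAF2, 0.000683 to 0.171 for CYCS and 1.75e-05 to 0.0776 for SDHD, each of which kept its direction. For TFAM it ranged from 0.00465 to 0.218 and for SLIRP from 0.00105 to 0.162 (edgeR or DESeq2), also with the direction kept.

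Genes near 0 changed sign. Leaving out replicate 3 of both groups, an alternative chosen after seeing the data, gave log2 fold changes of 0.21 for UQCRC1, -0.01 for COX4I1, 0.21 for COX6A1, 0.1 for COX7A2 and -0.06 for NDUFAF5. COX6B1 had -0.01 with the filter of 1 read and -0.01 with the block. Without single libraries the values ran from -0.22 to 0.19 for UQCRC1, -0.02 to 0.15 for COX4I1, -0.3 to 0.05 for NDUFA4, -0.23 to 0.15 for COX6A1, -0.15 to 0.17 for COX6B1, -0.19 to 0.01 for COX7A2, -0.04 to 0.33 for COX7A2L, -0.12 to 0.17 for COX7B, -0.28 to 0.01 for ATP5G2 and -0.18 to 0.29 for NDUFAF5. The cause was not tested. The differences by complex in reads, rate and ratio moved by less than 1 SD, pooled over both groups, without each library and, for the ratio, with the posterior mean. Some of these small differences changed sign, such as reads of complex I (0.017 to -0.0197 percentage points without siCGGBP1 replicate 2) and of complex IV (0.003 to -0.011 without siControl replicate 2), and the rate of complex V (0.00373 to -0.0026 without siControl replicate 3), and the ratio did so in complexes III, IV and V and over all subunits. An offset with each library's rate moved the median of all genes in the conversion rate from 0.05 to -0.06 on the log2 scale. NDUFS1 had 1 to 238 conversions on 19510 to 32360 covered T per library.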
